A study of Mus musculus with 10 samples.

Results

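The genes described here are 35 genes of the cell cycle, chosen by symbol from the 55453 genes listed in a count table of hippocampal microglia. The rule used the symbols and no level of the table, but the list was drawn up with earlier results of these data known. All 35 were found in the table, and all 35 passed the filter on low counts and belong to the 14481 genes tested. By role, 25 of them act mainly in mitosis or in readying chromosomes for it, and the other 10 supply nucleotides or copy DNA in S phase.

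The study asked whether glatiramer acetate (GA), a synthetic peptide mixture used against multiple sclerosis, changes microglia in 3xTg mice, which model Alzheimer's disease. RNA was sequenced from 10 libraries, 5 from mice given PBS and 5 from mice given GA. All mice were females over 15 months old of the 3xTg genotype, which carries transgenes that include mutated human APP and MAPT under the neuronal Thy1 promoter, so the PBS libraries share these transgenes and no library is from a mouse without them. By the labels GA was given weekly at 0.1 mg for about 8 weeks, while the study's methods add a further injection in the first week. Cells were gated as CD45int and CD11b+ after myelin removal, by a Percoll gradient in the labels, while the study's methods also name depletion beads. The PBS libraries are named 388_1 to 388_5, and the GA libraries 394_1, 394_2, 400_1, 400_2 and 400_3. What the prefixes 388, 394 and 400 stand for is not stated, so prefix and treatment cannot be told apart. The labels do not say whether each library came from a separate mouse, so p-values measure the spread between these libraries, which may be partly technical.

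A dividing cell copies its DNA in S phase and separates the copies in mitosis. Cyclin-dependent kinases, switched on by cyclins, start each step, and the anaphase-promoting complex ends mitosis by marking cyclins for destruction. Many mitosis genes are transcribed late in the cycle, and their promoters often carry a CHR element (cell cycle genes homology region) near CCAAT boxes, whereas many S-phase genes carry sites for E2F factors. Microglia of the adult brain renew themselves slowly by division, and more of them divide around amyloid plaques. In sorted bulk RNA, fewer dividing cells and less of these RNAs per cell cannot be told apart.

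Promoter sequences are printed for 6 of the genes, because the mitosis and S-phase genes differed in their spread across libraries and carry different motifs. Each is the stretch of 160 bases before the transcript start that RefSeq gives on GRCm38.p6, read 5′ to 3′ on the strand of the gene, which is the minus strand in each case. Capitals mark the CHR letters TTTGAA, the CCAAT box and the E2F letters TTTCCCGC, TTTCGCGC, TTTGCCGC or TTTGGCGC, or their reverse complements, with overlapping matches joined. Cdk1 is the kinase that drives entry into mitosis (chr10:69352913-69353072), Mki67 coats mitotic chromosomes (chr7:135716380-135716539), Top2a untangles sister chromatids (chr11:99024190-99024349) and Cenpf binds kinetochores (chr1:189688087-189688246). Mcm2 (chr6:88898781-88898940) and Mcm6 (chr1:128359706-128359865) encode subunits of the replicative helicase.
Cdk1: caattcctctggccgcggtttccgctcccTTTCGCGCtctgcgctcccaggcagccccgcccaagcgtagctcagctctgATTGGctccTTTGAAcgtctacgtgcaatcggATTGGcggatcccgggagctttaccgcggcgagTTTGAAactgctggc
Mki67: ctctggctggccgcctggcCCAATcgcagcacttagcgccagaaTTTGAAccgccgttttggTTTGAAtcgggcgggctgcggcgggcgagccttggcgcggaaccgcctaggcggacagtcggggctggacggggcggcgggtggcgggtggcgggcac
Top2a: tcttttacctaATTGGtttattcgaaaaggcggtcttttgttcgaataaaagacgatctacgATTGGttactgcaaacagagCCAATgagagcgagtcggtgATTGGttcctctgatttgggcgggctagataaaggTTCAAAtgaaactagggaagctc
Cenpf: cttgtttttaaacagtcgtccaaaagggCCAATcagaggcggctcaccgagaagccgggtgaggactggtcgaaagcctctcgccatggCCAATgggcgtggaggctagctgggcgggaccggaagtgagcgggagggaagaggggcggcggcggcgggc
Mcm2: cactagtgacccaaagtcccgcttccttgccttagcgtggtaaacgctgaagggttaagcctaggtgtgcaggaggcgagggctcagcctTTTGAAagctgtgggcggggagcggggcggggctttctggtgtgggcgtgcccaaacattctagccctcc
Mcm6: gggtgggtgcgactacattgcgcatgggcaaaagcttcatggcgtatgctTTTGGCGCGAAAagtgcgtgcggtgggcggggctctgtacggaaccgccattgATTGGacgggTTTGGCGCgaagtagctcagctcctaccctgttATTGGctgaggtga

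RefSeq promoters, each 250 bases before and 50 after the start, matched 29 of the 35 genes. Aurkb, Ccna2, Kif20a, Mcm4, Stmn1 and Tpx2 had no entry, and Mcm7 and Prc1 had 2 promoters each. The CHR letters, on either strand, stood in 16 of 21 mitosis promoters (76.2%) and in 1 of 10 S-phase promoters, that of Mcm2, against 17.9% of all 32851 promoters in the table. CCAAT was as common in both classes, in 90.5% of the mitosis and 90.0% of the S-phase promoters, against 37.4% of all promoters. E2F letters were found in 1 mitosis promoter (4.8%), that of Cdk1, and in 4 S-phase promoters (40.0%), against 2.3% of all. CHR and CCAAT letters occurred together in 76.2% of the mitosis promoters and 7.0% of all promoters. Cdk1, Mki67 and Top2a each had 2 CHR matches in the window. The CHR match of Cenpf began at base 3 after the start, outside the printed stretch, and Mcm6 had 3 E2F matches, of which 2 overlap. A match of letters is a description of the sequence and not a measured binding site.

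The libraries held between 32332185 and 38764643 counts, and the 35 genes together took between 0.0417% (394_2) and 0.0566% (388_3) of them. The defining microglial genes were abundant in every library: Tmem119 was at 4927 to 6472 normalized CPM, P2ry12 at 5570.0 to 7351 and Cx3cr1 at 6600.5 to 7847. Levels are given as normalized CPM, that is, counts relative to library totals that were adjusted by the trimmed mean of M-values (TMM). The count of the scarcest gene, Kif23, was 9 to 176 in PBS and 23 to 139 in GA, whereas Mcm3 had at least 2848 counts in every library. RNA of other cells was also present: neutrophil markers summed to 37.9 to 447 normalized CPM in PBS and to 10.9 to 169 in GA.

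Compared per kilobase of merged exons, S-phase genes were more abundant than mitosis genes. The median level was 5.90 CPM per kilobase for the S-phase genes (range 1.58 to 27.6) and 1.04 for the mitosis genes (range 0.246 to 6.12). Among all tested genes with a known length, the median percentile was 57.1 for the S-phase and 26.2 for the mitosis genes. Mcm3, a helicase subunit, had the highest level of the 35 genes at 27.6 CPM per kilobase, followed by Pcna, the sliding clamp of DNA polymerase, at 11.0, Mcm6 at 8.57 and Mcm4 at 8.19. The lowest levels were those of Kif23, a motor of the cytokinesis midzone, at 0.246, and Cenpe, a kinetochore motor, at 0.477. Hmgb2, a chromatin protein that bends DNA, and Stmn1, which destabilises microtubules, were the only mitosis genes above 3 CPM per kilobase, at 6.12 and 4.74.

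No gene of the 35 differed between GA and PBS after adjustment over all 14481 genes (edgeR quasi-likelihood test, adjusted p under 0.05). The same test called 0 of all genes (0%), DESeq2 called 2 genes, neither of them among the 35, and limma-voom called 0. Without 394_1, edgeR called 1 gene, also not among the 35. At an unadjusted p under 0.05, edgeR found 2 of the 35 higher in GA (Mcm2 and Mcm4), where 2.58% of all tested genes were higher, and 1 lower (Cenpf), where 3.17% of all were lower. DESeq2 and limma-voom found these same 3 genes at that threshold. Cenpf was also the only gene of the 35 whose groups did not overlap, with all GA libraries lower, as in 0.456% of all genes, while 0 of the 35 had all GA libraries higher, as in 0.435% of all genes. The log2 fold change of GA against PBS was above 0 for 23 of the 35 and for 7250 of the 14481 tested genes, and its median was 0.06 over the 35 genes and 0.00 over all tested genes.

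These counts rested in part on single libraries. Without 388_3, 5 of the 35 genes had an unadjusted p under 0.05 with higher levels in GA (Cdk1, Aurkb, Stmn1, Mcm2 and Mcm4), where 2.82% of all tested genes did in the same fit. Without that library 3 genes had groups that did not overlap, Stmn1 and Mcm4 with GA higher, as in 0.905% of all genes, and Cenpf with GA lower, as in 0.912%. Without 388_1, 388_4, 394_1 or 400_1, the count higher in GA was 1, Mcm2, where 1.96% to 2.73% of all tested genes were higher. Without 388_2 or 394_2, Mcm2 joined Cenpf among the genes whose groups did not overlap, which made 2, where 0.884% to 1.11% of all genes had GA higher throughout. The count lower in GA stayed at 1, Cenpf, in each of these fits.

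**Figure D1:**
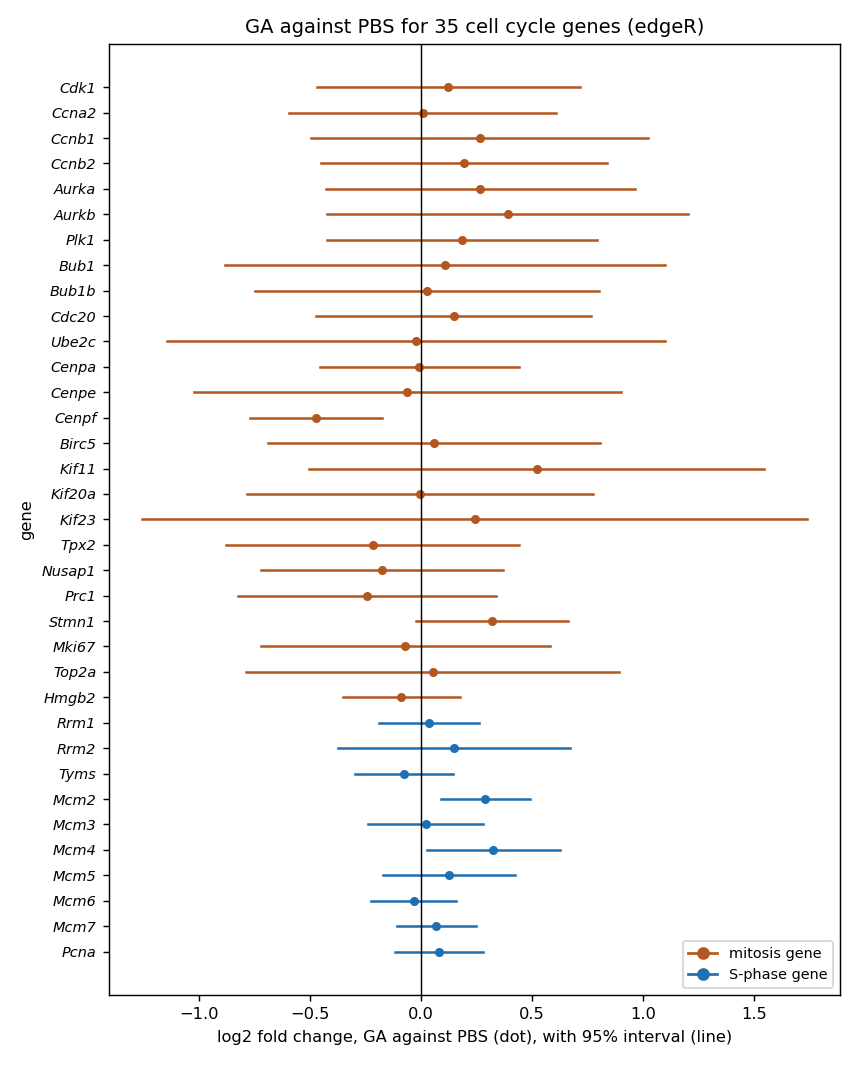
Log2 fold change of GA against PBS (x axis, log2 units) for each of the 35 genes (y axis), as fitted by edgeR from 5 libraries per group; dots are estimates and lines 95% intervals, with mitosis genes in orange and S-phase genes in blue. The interval lies below 0 for Cenpf and above 0 for Mcm2 and Mcm4, and it is wider for most mitosis genes than for most S-phase genes.

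The cyclins and their kinase had 4 log2 fold changes above 0, none past an unadjusted p of 0.05. With the GA libraries of prefix 394 alone all 4 were below 0, and without 400_3 those of Ccna2, Ccnb1 and Ccnb2 were below 0. Cdk1 stood at 4.501, 5.62, 11.3, 3.94 and 5.07 normalized CPM in 388_1 to 388_5. Its GA levels, in the order 394_1, 394_2, 400_1, 400_2 and 400_3, were 6.83, 4.55, 8.81, 5.50 and 7.49 normalized CPM. Library 388_3 held the highest value, the other 4 PBS libraries were below 6, and the groups overlapped. The group means were 6.09 ± 3.00 in PBS and 6.64 ± 1.67 in GA (SD, n = 5), a log2 fold change of 0.12 ± 0.28 (SE; edgeR adjusted p = 0.972). It was 0.0031 without 388_4 and 0.47 without 388_3, where its unadjusted p was under 0.05. Ccnb1, the mitotic cyclin B1, ranged from 1.33 to 2.99 normalized CPM in PBS (1.33, 2.54, 2.99, 1.58 and 2.15) and from 1.34 to 4.48 in GA (2.37, 1.46, 3.09, 1.34 and 4.48). Its highest value was in 400_3, and its log2 fold change was 0.27 ± 0.35 (edgeR adjusted p = 0.951). For Ccnb2, cyclin B2, and Ccna2, cyclin A2, the log2 fold changes were 0.19 and 0.01. Ccnb2 has a listed pseudogene copy with 7 to 29 counts per library, and Ccna2 shares 510 exon bases with Exosc9 on the opposite strand. Strandedness of the counting was not given in the sources used here, so reads of such overlaps cannot be assigned to a strand.

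The mitotic kinases and the spindle checkpoint gave 5 log2 fold changes above 0, none past an unadjusted p of 0.05. With the GA libraries of prefix 394 alone those of Plk1, Bub1 and Bub1b were below 0. Aurkb, the kinase of the chromosomal passenger complex, had the largest, 0.39 (95% interval -0.42 to 1.20), and its levels ran from 1.33 to 7.67 normalized CPM in PBS and from 2.72 to 5.18 in GA. It was 0.19 without 388_4 and 0.91 without 388_3, where its unadjusted p was under 0.05. Aurka, the centrosome kinase, was at 2.92 ± 0.65 normalized CPM in PBS and 3.52 ± 1.54 in GA, and 3 GA libraries lay above all PBS libraries while 394_2 lay below them all. Its log2 fold change of 0.27 was 0.072 without 394_1 and 0.49 without 394_2. Plk1, a kinase of mitotic entry, was at 0.19 log2 units, and the checkpoint genes Bub1 and Bub1b at 0.11 and 0.03. Of the genes of the anaphase-promoting complex, its activator Cdc20 was at 0.15 and its ubiquitin-conjugating enzyme Ube2c at -0.02. Ube2c shares 592 exon bases with Tnnc2 on the opposite strand.

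Among centromere genes, Cenpf was the gene that separated the groups. Cenpf (ENSMUSG00000026605.14, chr1:189640606-189688086, minus strand, GRCm38) stood at 22.3, 18.6, 16.1, 15.7 and 17.6 normalized CPM in 388_1 to 388_5, from 506 to 854 counts. In GA it stood at 11.96, 15.7, 13.2, 10.04 and 14.3, from 383 to 558 counts. The lowest PBS library, 388_4 at 15.678, was barely above the highest GA library, 394_2 at 15.662, and with scaling by library size alone the groups overlapped. The mean was 18.1 ± 2.66 in PBS and 13.03 ± 2.16 in GA, a log2 fold change of -0.47 ± 0.14 (95% interval -0.77 to -0.18). The unadjusted edgeR p was 0.00408 and the adjusted p 0.847, and the exact two-sided permutation test over the libraries, run on log2 CPM for each of the 35 genes, gave p = 0.00794 before any adjustment, the smallest p that 5 against 5 libraries can give. The log2 fold change of Cenpf was between -0.55 and -0.38 when any 1 library was left out. With the GA libraries of prefix 394 alone, neither Cenpf nor any other of the 35 genes, Mcm2 included, had an unadjusted p under 0.05. That fit has only 2 GA libraries. Their mean was 13.8 normalized CPM for Cenpf, against 18.1 in PBS, and 24.1 for Mcm2, against 21.2 in PBS. For all GA against PBS libraries, the DESeq2 adjusted p of Cenpf was 0.326.

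For the other centromere genes the groups overlapped, and a difference from Cenpf was not tested. Cenpa, the centromeric histone H3 variant, was at 8.22 ± 3.07 normalized CPM in PBS and 8.18 ± 1.13 in GA, with a log2 fold change of -0.01 (95% interval -0.45 to 0.44). Cenpe was at -0.06 (95% interval -1.02 to 0.90). Birc5 (survivin), the targeting subunit of the chromosomal passenger complex, stood at 2.25, 3.23, 5.65, 3.50 and 2.66 normalized CPM in PBS. Its GA levels were 4.62, 1.54, 5.52, 2.10 and 4.22. Of the GA libraries, 2 lay below all PBS libraries and the other 3 above all of them but 388_3, and the log2 fold change was 0.06 ± 0.35 (edgeR adjusted p = 0.989).

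The spindle and cytokinesis genes had 3 log2 fold changes above 0 and 4 below. Stmn1 (chr4:134468320-134473843, plus strand) stood at 7.30, 7.62, 10.8, 6.91 and 7.94 normalized CPM in PBS. In GA it stood at 12.7, 8.95, 10.5, 8.23 and 10.2. Every GA library was above 4 of the 5 PBS libraries, and only 388_3 reached into the GA range. The log2 fold change was 0.32 ± 0.16 (edgeR p = 0.0660, adjusted p = 0.875), and the exact permutation test gave p = 0.0794. Kif11, a motor that pushes spindle poles apart, had the largest log2 fold change of the 35 genes, 0.52, with a 95% interval from -0.50 to 1.55. It was 0.28 without 388_5 and 0.77 without 388_4. The PBS levels of Kif11 alone ran from 0.822 (388_5) to 5.39 (388_4) normalized CPM. Without 388_3 the log2 fold change of Kif23 was 1.24, and without 400_1 it was -0.12. With the GA libraries of prefix 394 alone that of Kif23 was -0.90. Kif23 was at 0.24 (95% interval -1.25 to 1.74), the midzone motor Kif20a at -0.01, the spindle assembly factor Tpx2 at -0.22, the microtubule binder Nusap1 at -0.18 and the midzone bundler Prc1 at -0.24. Kif20a and Prc1 share 1271 and 911 exon bases with Cdc23 and Rccd1 on the opposite strand.

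Mki67 and Top2a, the usual markers of dividing cells, did not separate the groups. Mki67 stood at 7.28, 8.99, 16.5, 8.55 and 7.03 normalized CPM in PBS. In GA it stood at 10.1, 5.73, 10.5, 4.74 and 14.9. Its highest value was in a PBS library, 388_3, and its lowest in a GA library, 400_2. The means were 9.67 ± 3.90 in PBS and 9.21 ± 4.10 in GA, a log2 fold change of -0.07 (95% interval -0.72 to 0.58, edgeR adjusted p = 0.984). It was 0.21 without 388_3 and -0.31 without 400_3. Top2a stood at 7.14, 10.6, 18.8, 4.12 and 9.41 normalized CPM in PBS. In GA it stood at 14.4, 4.86, 11.1, 5.06 and 16.5. Like Mki67, Top2a was highest in 388_3, followed by 400_3, and its log2 fold change was 0.05 (95% interval -0.79 to 0.89). That of Top2a was 0.41 without 388_3 and -0.18 without 400_3. Hmgb2 varied less, at 19.9, 14.1, 18.3, 23.5 and 19.1 normalized CPM in PBS and 19.8, 17.2, 17.2, 16.9 and 18.1 in GA. Its log2 fold change was -0.09 (95% interval -0.35 to 0.17).

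**Figure D2:**
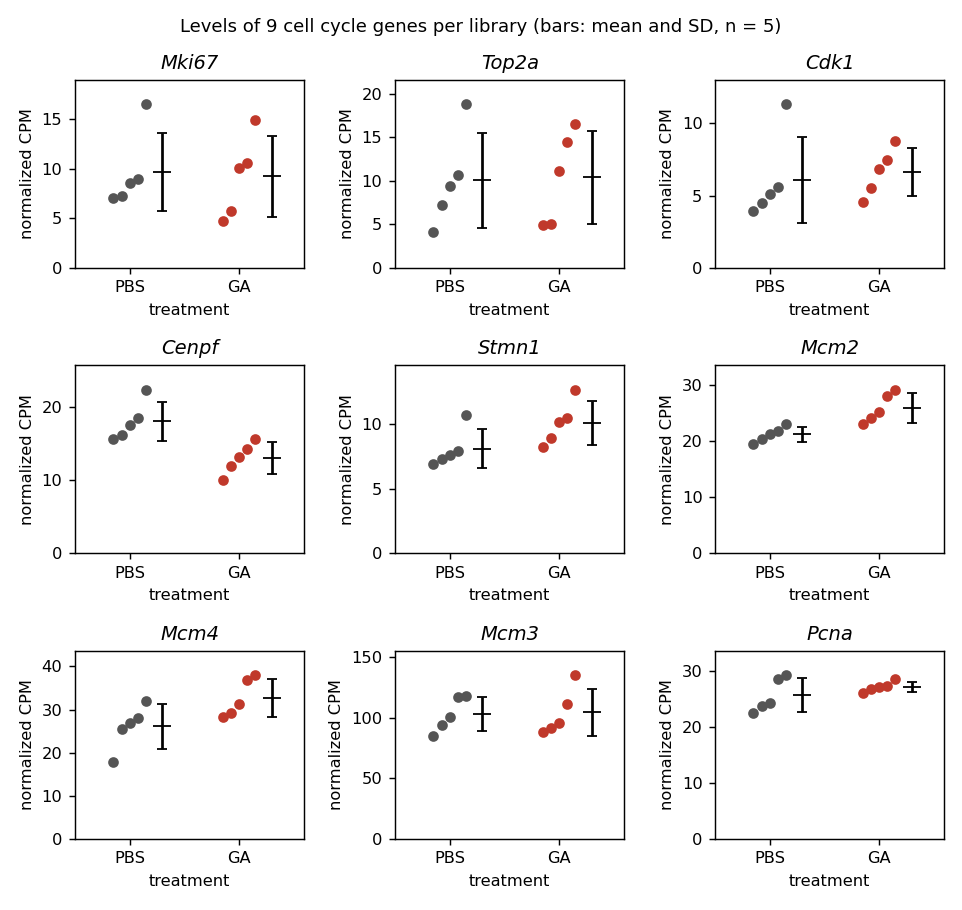
Normalized CPM (y axis, from 0) of 9 genes in the 5 PBS (grey) and 5 GA (red) libraries; points are libraries in rising order and bars the group mean and SD. Cenpf is lower in all GA libraries, Mcm2 is above all PBS libraries in 4 of 5 GA libraries, and the groups overlap for Mki67 and Top2a.

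The enzymes of nucleotide supply differed in level and in spread. Rrm1, the large subunit of ribonucleotide reductase, stood at 35.4, 45.3, 41.6, 36.5 and 52.5 normalized CPM in PBS and at 41.3, 41.8, 43.0, 43.2 and 47.4 in GA. Rrm2, the small subunit that is made in S phase, stood at 2.20, 4.21, 5.13, 3.94 and 5.27 in PBS and 4.41, 3.34, 5.81, 4.09 and 5.38 in GA. Per kilobase of exon, the mean level was 3.89 normalized CPM for Rrm1 and 1.58 for Rrm2. Tyms, thymidylate synthase, stood at 17.1, 20.5, 17.8, 18.4 and 18.6 in PBS and at 19.7, 16.5, 19.0, 14.7 and 17.6 in GA. Rrm2 had the largest spread within groups of the S-phase genes, a coefficient of variation of 25.6%, against 12.2% for Rrm1 and 9.22% for Tyms. The groups overlapped for all 3 genes, and their log2 fold changes were 0.04 (95% interval -0.19 to 0.26), 0.15 (-0.37 to 0.67) and -0.08 (-0.30 to 0.14).

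Of the replication genes, 6 of 7 had log2 fold changes above 0, as did 7250 of all 14481 tested genes, and those of Mcm2 and Mcm4 passed an unadjusted p of 0.05 with GA higher, as 2.58% of all tested genes did. Mcm2 (chr6:88883474-88898780, minus strand) stood at 19.5, 23.1, 20.4, 21.2 and 21.8 normalized CPM in PBS. In GA it stood at 25.2, 23.0, 29.1, 28.1 and 24.1. Only 394_2, at 23.0, lay below the highest PBS library, 388_2, at 23.1. The means were 21.2 ± 1.35 and 25.9 ± 2.62, a log2 fold change of 0.29 ± 0.09 (95% interval 0.09 to 0.49), with an edgeR p of 0.00786, an adjusted p of 0.847 and an exact permutation p of 0.0159. Mcm4 (chr16:15623897-15637400, minus strand) stood at 25.5, 27.0, 32.01, 17.9 and 28.001 normalized CPM in PBS. In GA it stood at 36.8, 28.3, 37.9, 31.3 and 29.2. Every GA library was above every PBS library but 388_3, and 388_4 was lower than all others. The log2 fold change was 0.33 ± 0.14 (95% interval 0.03 to 0.62), with an edgeR p of 0.0337, an adjusted p of 0.854 and an exact permutation p of 0.0556. The edgeR p of Mcm4 was no longer under 0.05 without 388_1, 388_4, 394_1 or 400_1, or with the GA libraries of either prefix alone, and its log2 fold change was 0.22 without 388_4.

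The other 4 helicase subunits and Pcna had intervals that included 0. Mcm3 stood at 117, 85.1, 118, 100.5 and 94.2 normalized CPM in PBS and at 135, 88.0, 91.8, 111 and 96.0 in GA, a log2 fold change of 0.02 (95% interval -0.24 to 0.28). Mcm5 stood at 24.97, 19.3, 16.8, 23.0 and 21.7 in PBS and at 29.9, 18.3, 21.7, 21.3 and 24.3 in GA (log2 fold change 0.13, interval -0.17 to 0.42). For Mcm6 the PBS levels were 39.1, 37.1, 43.8, 45.0 and 37.3 and the GA levels 38.1, 36.2, 46.0, 38.0 and 39.4 (log2 fold change -0.03, interval -0.23 to 0.16). The 6 Mcm proteins form a single ring, yet the estimates ran from -0.03 to 0.33, and a difference between Mcm2 or Mcm4 and the other subunits was not tested. Mcm7 stood at 26.8, 28.7, 24.8, 25.5 and 29.3 in PBS and at 27.9, 26.8, 29.8, 27.0 and 30.4 in GA (log2 fold change 0.07, interval -0.11 to 0.25). Pcna was at 22.6, 23.7, 28.6, 24.4 and 29.3 in PBS and at 28.7, 26.8, 27.4, 27.2 and 26.1 in GA (log2 fold change 0.08, interval -0.12 to 0.28). Mcm7 shares 321 exon bases with Ap4m1 on the opposite strand, and a Pcna pseudogene held 3 to 17 counts per library.

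Libraries of the same group differed strongly in their mitosis genes and little in their S-phase genes. The mean log2 CPM over the 25 mitosis genes was 1.97, 2.14, 2.83, 1.81 and 1.91 in 388_1 to 388_5. In the GA libraries it was 2.42, 1.54, 2.55, 1.81 and 2.74. Library 388_3 was well above the other PBS libraries, and the GA libraries fell into a higher trio (394_1, 400_1 and 400_3) and a lower pair (394_2 and 400_2). The group means were 2.13 ± 0.41 in PBS and 2.21 ± 0.51 in GA, and the range over all 10 libraries was 1.28. For the 10 S-phase genes the mean log2 CPM was 4.66 ± 0.09 in PBS and 4.76 ± 0.11 in GA, with a range of 0.31 over all libraries, from 4.55 (388_1) to 4.86 (394_1). No p-value is given for these means, since the genes were chosen with results of these data known. The difference between GA and PBS for the mitosis genes was 0.08, and it was -0.05 without 400_3 and 0.25 without 388_3.

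**Figure D3:**
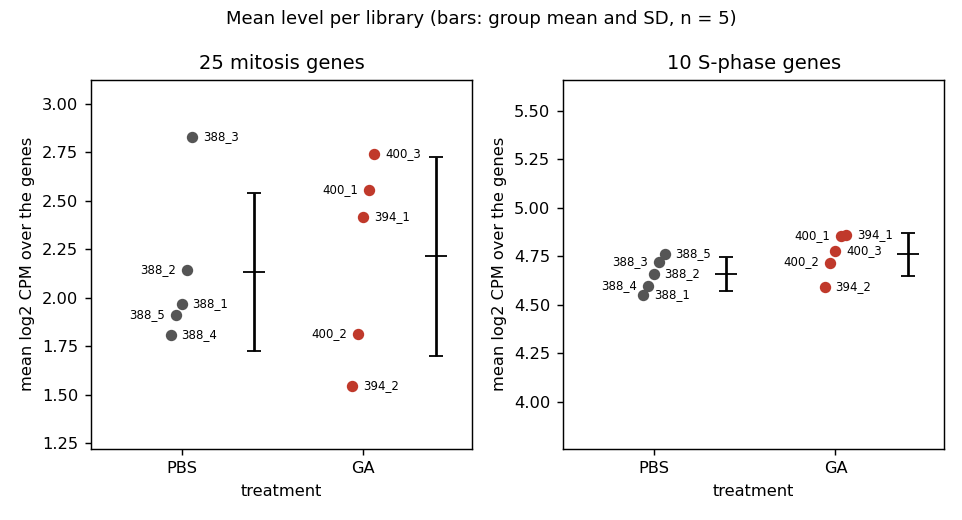
Mean log2 CPM over the 25 mitosis genes (left) and the 10 S-phase genes (right) in each library, with both y axes spanning the same number of log2 units; bars are the group mean and SD over 5 libraries. The mitosis genes range from 1.54 to 2.83 over the libraries, and the S-phase genes from 4.55 to 4.86.

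The spread between libraries was wider for the mitosis genes than for the S-phase genes, as was the counting error. The coefficient of variation within groups was 13.7% to 94.2% for the mitosis genes, with a median of 41.9%, where Poisson counting alone would give a median of 8.37%. For the S-phase genes it was 6.54% to 25.6%, with a median of 10.8% against 3.24% from counting. Amplified reads are not independent molecules, so these counting errors are lower bounds. The biological coefficient of variation that edgeR fits was above the trend for genes of the same level in 20 of the 25 mitosis genes and in 3 of the 10 S-phase genes, against 31.5% of all tested genes. Top2a, for example, varied by 42.8%, where the trend at its level was 20.5%, and Mki67 by 33.8%, where the trend was 21.2%. Hmgb2, Stmn1, Cenpf, Nusap1 and Plk1 were the mitosis genes below the trend. The libraries were amplified from small amounts of RNA, and the part of amplification in this spread was not tested.

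**Figure D4:**
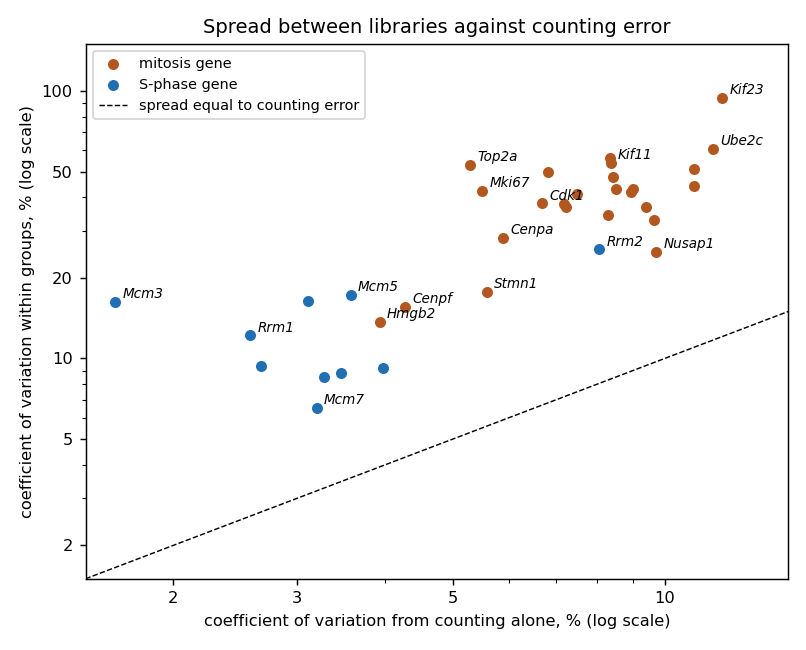
Coefficient of variation between libraries of the same group (y axis, %, log scale) against that expected from counting alone (x axis, %, log scale) for each of the 35 genes. The dashed line marks equality, and most mitosis genes (orange) lie above 25%, where only Rrm2 of the S-phase genes (blue) is found.

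Many mitosis genes had their highest level in the same PBS library. Library 388_3 had the highest level for 14 of the 35 genes, all 14 of them mitosis genes, against 9.27% of all tested genes. The other 11 mitosis genes had theirs in 6 other libraries, 3 of them PBS and 3 GA. Library 388_4 had the lowest level for 8 mitosis genes and 394_2 for 7, against 19.8% and 9.15% of all tested genes. Mki67 was set against 7 other genes across the 10 libraries, on log2 CPM, with 100000 permutations and adjustment over the 7 relations. It correlated with Cenpa (Pearson r = 0.81, permutation p = 0.00230, adjusted p = 0.0161, and Spearman rho = 0.68, p = 0.0359, adjusted p = 0.0629). It also correlated with Cdk1 (r = 0.75, permutation p = 0.0123, adjusted p = 0.0430, and rho = 0.76, p = 0.0148, adjusted p = 0.0345). After leaving out 388_3 and 400_2, the libraries farthest from the median of Mki67, r was 0.71 for Cenpa and 0.74 for Cdk1, and after subtracting the mean of each title prefix it was 0.83 and 0.79. These genes share library preparation and depth with Mki67, and the 7 were chosen with results of these data known.

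The other 5 genes had a lower Pearson r over the 10 libraries, although Cdc20 and Aurka had the higher rho. With Cdc20, r was 0.67 (permutation p = 0.0320, adjusted p = 0.0748) and rho 0.81 (p = 0.00736, adjusted p = 0.0258), and r was 0.54 without 388_3 and 400_2 and 0.72 within prefixes. With Aurka, r was 0.62 (permutation p = 0.0546, adjusted p = 0.0956) and rho 0.81 (p = 0.00716, adjusted p = 0.0258), and r was 0.83 without those libraries and 0.63 within prefixes. Kif11 gave r = 0.28 (permutation p = 0.432, adjusted p = 0.605) and rho = 0.43 (p = 0.218, adjusted p = 0.306), with 0.75 without those libraries and 0.29 within prefixes. For the S-phase genes, Rrm1 gave r = 0.08 (permutation p = 0.825, adjusted p = 0.825) and rho = -0.04 (p = 0.918, adjusted p = 0.946), with 0.21 without those libraries and 0.07 within prefixes. Mcm2 gave r = -0.16 (permutation p = 0.658, adjusted p = 0.768) and rho = 0.03 (p = 0.946, adjusted p = 0.946), with 0.51 without those libraries and -0.25 within prefixes. The relation of Kif11 therefore rests on which libraries are kept, and that of Mcm2 changes sign.

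**Figure D5:**
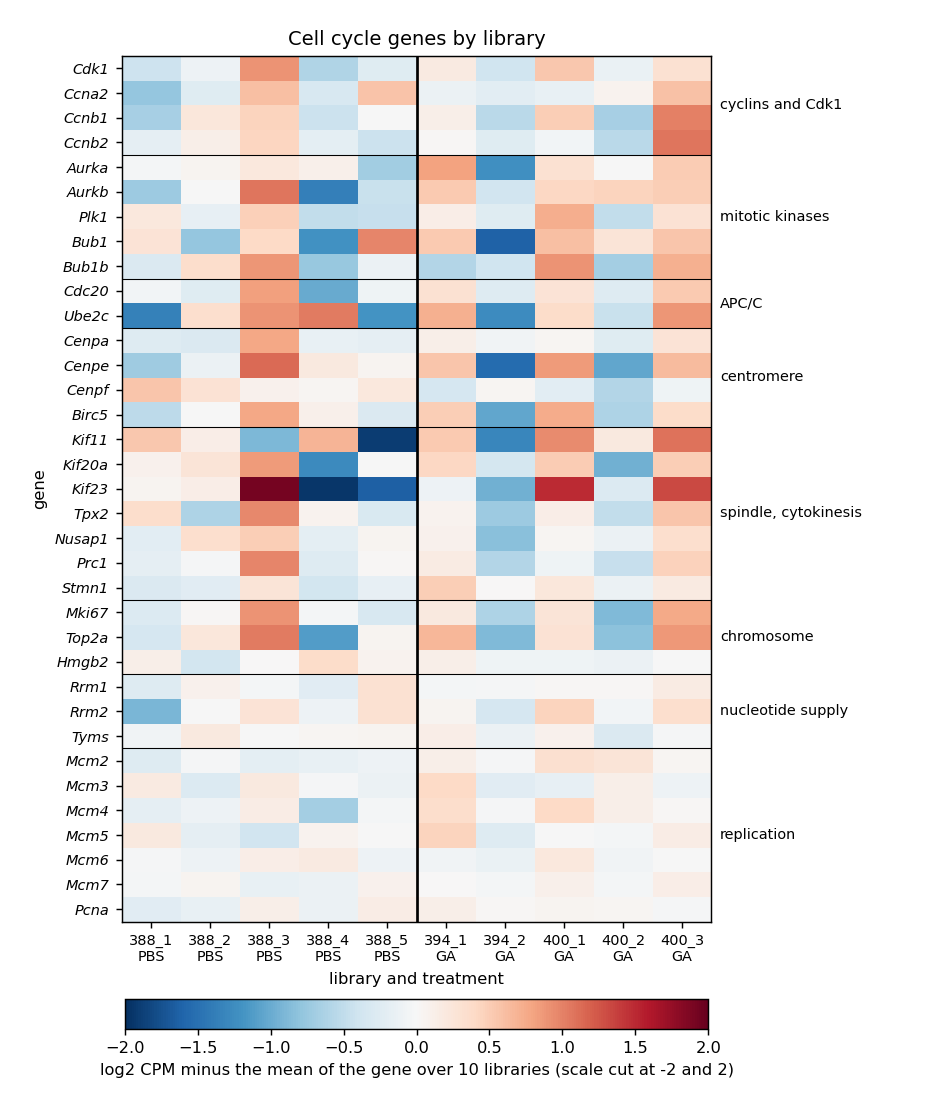
Log2 CPM of each of the 35 genes (y axis, grouped by role) in each library (x axis, PBS left and GA right), shown as the difference from the mean of the gene over the 10 libraries; red is above and blue below that mean. The mitosis genes in the upper 25 lines are mostly red in 388_3, 394_1, 400_1 and 400_3 and mostly blue in 388_4 and 394_2, whereas the S-phase genes in the lower 10 lines are pale.

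Markers of other cells moved between the libraries as well. The sum of 12 neutrophil and precursor markers was 160, 37.9, 447, 287 and 368 normalized CPM in 388_1 to 388_5. In the GA libraries it was 42.3, 169, 10.9, 18.7 and 106. Library 388_3 had the highest neutrophil sum and the highest mean of the mitosis genes, 2.83 on the log2 CPM scale. The next highest sums, in 388_5 and 388_4, went with means of 1.91 and 1.81, and the lowest sum, in 400_1, with a mean of 2.55. The levels in 388_3 of the granule genes Ngp, Ltf and Camp, 115, 101 and 30.1 normalized CPM, were also the highest of the 10 libraries. Mpo and Prtn3, granule genes of earlier precursors, had at most 3 counts in any library, and Elane had 13 counts in 388_3 and at most 2 elsewhere. Monocyte markers summed to 34.9 to 88.4 normalized CPM in PBS and 36.3 to 45.8 in GA, and border macrophage markers to 49.3 to 261 and 52.3 to 200. T and NK cell markers were at or under 1.67 normalized CPM in sum in every library, and neuron markers at or under 4.25. Erythroid markers summed to 0.654 to 1.67 normalized CPM in PBS and 0.491 to 2.83 in GA. The B cell list summed to 565 to 671 in PBS and 539 to 673 in GA, of which 96.5% came from Ighm. The sums of oligodendrocyte precursor markers were 7.98 to 20.2 and 7.38 to 23.0, and those of neural progenitor markers 4.89 to 7.78 and 4.10 to 8.90, with 99.2% of the latter from Nes and 5 of its 8 genes at 3 counts or fewer everywhere. Oligodendrocyte markers summed to 180 to 210 and 175 to 218, astrocyte markers to 247 to 306 and 251 to 354, and endothelial markers to 158 to 199 and 175 to 200. Slc1a3 made up 98.1% of the astrocyte sum and Cspg4 97.3% of the oligodendrocyte precursor sum. Slc2a1 made up 62.0% of the endothelial sum and Cnp 52.0% of the oligodendrocyte sum. A sum carried by a single gene does not show that RNA of that cell type was present. The part of these cells in the levels of the cell cycle genes was not tested.

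Within GA, the 3 libraries of prefix 400 were set against the 2 of prefix 394. No gene of the 35 passed an adjusted p of 0.05 by edgeR, where 0.0125% of the 15985 tested genes did (2 genes, and 73 by DESeq2), and none passed an unadjusted p of 0.05, where 5.44% of the tested genes did. DESeq2 and limma-voom also called 0 of the 35 genes after adjustment. The log2 fold change of 400 against 394 was above 0 for 22 of the 25 mitosis genes, with a median of 0.35, and for 6 of the 10 S-phase genes, with a median of 0.05. Of all 15985 tested genes it was above 0 for 8229, with a median of 0.0071. Bub1b had the smallest unadjusted p, 0.0720, at a log2 fold change of 0.96. Its levels were 3.66 and 4.18 normalized CPM in 394_1 and 394_2 and 10.4, 3.41 and 9.08 in 400_1 to 400_3, so that 400_2 was with the 394 libraries.

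The wider cell cycle machinery was described by 109 other genes, of which 108 were tested. None passed an adjusted p of 0.05 by edgeR. At an unadjusted p under 0.05, 2 were higher in GA and 5 lower, where 2.58% and 3.17% of all tested genes were, and the median log2 fold change was 0.04. The count higher in GA was 4 without 388_1, 5 without 388_2 or 394_2, 6 without 400_2 and 7 without 388_3, where the shares of all tested genes in the same fits were 2.73%, 3.15%, 2.58%, 2.03% and 2.82% in the order 388_1, 388_2, 394_2, 400_2 and 388_3. The count lower in GA was 3 without 388_3, 394_1 or 400_1, 2 without 388_4 and 1 without 400_2, where the shares of all tested genes were 3.42%, 2.45%, 2.08%, 2.32% and 2.25% in the order 388_3, 394_1, 400_1, 388_4 and 400_2. The higher genes were E2f6 and Rpa1, and the lower ones Ccnd3, Cdkn1a, E2f1, Smc2 and Mcm10, of which Mcm10 was chosen after its values were seen. The lists were chosen with results of these data known. By list, 1 of 8 genes of the G1 cyclins and kinases was lower, 1 of 6 tested cyclin-dependent kinase inhibitors was lower, 1 of 20 genes of the Rb and E2F group was higher and 1 lower, 1 of 30 origin and fork genes was higher and 1 lower, and 1 of 44 further mitosis genes was lower.

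The D-type cyclins and their kinases, which govern entry into the cycle, ranged from 0.304 CPM per kilobase for Ccnd2 to 35.3 for Cdk4. Cdk4, a kinase of the G1 phase, was at 114 ± 4.30 normalized CPM in PBS and 115 ± 7.34 in GA, with a log2 fold change of 0.01. Cdk6, its close relative, was at 39.7 ± 4.84 and 39.4 ± 3.35 (log2 fold change -0.01). The D-type cyclins that activate them were at log2 fold changes of -0.30 for Ccnd1, 0.15 for Ccnd2 and -0.33 for Ccnd3, with edgeR adjusted p-values of 0.896 for Ccnd1 and 0.847 for Ccnd3. Ccnd3, which had an unadjusted p under 0.05, was at 57.2 ± 9.68 normalized CPM in PBS and 45.6 ± 7.16 in GA, and the groups overlapped. Ccnd1 was at 60.4 ± 24.6 in PBS, where 388_4 reached 102, and 48.9 ± 5.11 in GA, and without 388_4 its log2 fold change was -0.029.

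Of the inhibitors of these kinases, Cdkn1a was at 25.9 ± 5.39 normalized CPM in PBS and 20.7 ± 3.43 in GA, a log2 fold change of -0.32 (edgeR adjusted p = 0.865), with an unadjusted p under 0.05. Cdkn1b was at -0.21, Cdkn1c at -0.37, Cdkn2b at -0.13, Cdkn2c at 0.28 and Cdkn2d at -0.0030, all above an unadjusted p of 0.05. Cdkn2a did not pass the filter, with 0 to 18 counts in PBS and 6 to 14 in GA. Of the 6 tested inhibitors 5 had log2 fold changes below 0, as did 7231 of the 14481 tested genes, and those of Cdkn2b and Cdkn2d changed sign when single libraries were left out. Library 388_4 was the highest for Cdkn1a, Cdkn1b and Cdkn1c, as it was for 20.6% of all tested genes. It also had the highest sums of border macrophage and monocyte markers of the 10 libraries, 261 and 88.4 normalized CPM, and the highest share of mitochondrial counts, 0.180%, and their part in the levels of the inhibitors and D-type cyclins was not tested.

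Outside the inhibitors and cyclins, the other genes with the smallest p-values were spread over several roles. E2f6, a repressor of E2F targets, was at 14.2 ± 1.57 normalized CPM in PBS and 17.8 ± 1.54 in GA, a log2 fold change of 0.33 (edgeR adjusted p = 0.847). Its groups did not overlap, with 11.9 to 16.2 in PBS and 16.3 to 19.99 in GA. Rpa1, which coats single-stranded DNA at forks, was at 0.24, and Cdc25a, a phosphatase that activates cyclin-dependent kinases, at 0.30. Smc2, a condensin subunit, was at 19.4 ± 2.58 in PBS and 15.2 ± 1.29 in GA, a log2 fold change of -0.35 (edgeR adjusted p = 0.847). E2f1, an activator of S-phase genes, was at -0.40. Mcm10, which helps to start replication forks, was at 1.73 ± 0.88 in PBS and 0.88 ± 0.53 in GA, a log2 fold change of -0.97 that ranged from -1.37 to -0.64 with single libraries left out (edgeR adjusted p = 0.859). All of these but Cdc25a had an unadjusted p under 0.05, and their edgeR adjusted p-values were between 0.847 and 0.872.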

How the data were processed

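The authors deposited raw counts of reads per gene for 10 libraries, as whole numbers without normalization. The submitters' processing notes name bcl2fastq 2.19.0, fastp 0.20.0, STAR 2.7.0f, Subread 1.6.4 with featureCounts, DESeq2 and the build GRCm38.p6. Their settings, annotation and strandedness are not given in the sources used here. Groups came from the treatment label. Genes were filtered with filterByExpr (minimum count 10), scaled by TMM and fitted with edgeR 4.0.16 (quasi-likelihood test, Benjamini-Hochberg over 14481 genes, R 4.3.3), tested on simulated data. Levels are normalized CPM or log2(CPM + 0.1), and levels per kilobase use merged exons of GENCODE M21. Promoters are RefSeq on GRCm38.p6. DESeq2 1.42.0, limma-voom 3.58.1, other scalings, filters and pseudocounts, each title prefix alone and each library left out were alternatives. The 35 genes and all lists were chosen with earlier results of these data known. Values per library were set for the usual proliferation, replication and nucleotide genes and for members with an unadjusted p under 0.05 or groups that did not overlap. From the other lists, inhibitors, D-type cyclins with Cdk4 and Cdk6, and the 3 smallest p-values in each direction were named, and from the marker lists their sums. The summed level of the microglial marker list is not reported here.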

Additional observations from a re-analysis of the deposited data

Results flagged for a closer look

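In 13 of 110 groups of 5 libraries examined, 1 library stood far from the other 4 of its treatment, where chance alone gives about 1 in 20 groups (5.5 of 110). These genes share their libraries and move together, so the 13 are not independent. Library 388_3 stood above the other PBS libraries for 6 genes. Its level was 11.3 normalized CPM for Cdk1 (the others 3.94 to 5.62), 13.7 for Cenpa (6.51 to 7.19), 5.38 for Kif23 (0.279 to 1.49), 10.4 for Prc1 (4.40 to 5.33), 10.8 for Stmn1 (6.91 to 7.94) and 16.5 for Mki67 (7.03 to 8.99). In the same group, 388_4 stood apart for the D-type cyclins Ccnd2, at 6.38 (1.37 to 2.41), and Ccnd3, at 73.6 (49.7 to 56.6).

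Among the GA libraries, 400_3 was far above the rest for the cyclins Ccna2, at 5.94 normalized CPM (3.40 to 4.12), and Ccnb2, at 7.07 (2.25 to 3.39). Library 394_2 was far below the rest for the kinases Aurkb, at 2.72 (4.79 to 5.18), and Bub1, at 0.589 (2.41 to 3.09), and above them for Cdk6, at 45.1 (36.5 to 39.002). The cause of these departures was not tested.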

How the results depend on the processing

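No gene of the 35 passed an adjusted p of 0.05 in any of 18 alternative fits, and the smallest adjusted p of a member was 0.326. Of 935 alternative fold changes of the 52 named genes, 835 kept their direction and 100 turned, 69 of them when 1 library was left out. No turned value passed the adjusted threshold before or after. Cenpf, Mcm2 and Mcm4 kept their direction in each fit.

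DESeq2 called 2 of all genes and 73 genes between the title prefixes. It put 4 of the other cell cycle genes higher at an unadjusted p under 0.05. The share of all genes that DESeq2 put there is not given, so these 4 cannot be set against it. With prefix 394 alone, 0 members were higher and 0 lower at that p, and 1 other gene was higher, where 1.45% of all tested genes were higher and 1.78% lower. With prefix 400 alone, 1 member was higher, 3 other genes were lower, and 2 members had groups that did not overlap, where 2.61% of all tested genes were higher, 3.86% lower, and 2.02% had GA above and 2.81% GA below all PBS libraries. Scaling by library size alone left 0 members that did not overlap. In each case the cause was not tested.

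Fold changes of GA against PBS (log2) that turned were, with prefix 394 alone, Cdk1 -0.092, Ccna2 -0.22, Ccnb1 -0.14, Ccnb2 -0.079, Plk1 -0.0038, Bub1 -0.33, Bub1b -0.61, Birc5 -0.16, Kif11 -0.10, Kif23 -0.90, Top2a -0.048, Rrm1 -0.018, Rrm2 -0.092, Cdk4 -0.055 and Cdk6 0.086. With prefix 400 alone they were Ube2c 0.11, Cenpa 0.0019, Cenpe 0.12, Kif20a 0.028, Mki67 0.065, Mcm3 -0.040, Mcm6 0.029 and Cdkn2d 0.027. With limma-voom they were Bub1b -0.014, Ube2c 0.16, Cenpa 0.053, Birc5 -0.020 and Kif20a 0.020, and without a filter Cenpa 0.0039, Kif20a 0.0040 and Cdkn2d 0.0066.

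With each library left out in turn, all genes called ranged from 0 to 1, members higher at an unadjusted p under 0.05 from 1 to 5, other genes higher from 2 to 7 and lower from 1 to 6, and members without overlap from 1 to 3. In the same fits, 1.96% to 3.82% of all tested genes were higher at that p and 2.08% to 4.19% lower. GA was above all PBS libraries for 0.704% to 1.25% of all genes and below them for 0.656% to 1.49%. The mean difference in log2 CPM ranged from -0.0078 to 0.22 for all members, from -0.051 to 0.25 for mitosis genes and from 0.076 to 0.15 for S-phase genes. The fold changes that turned ranged as follows: Ccna2 -0.16 to 0.18, Ccnb1 -0.039 to 0.43, Ccnb2 -0.17 to 0.34, Plk1 -0.0083 to 0.35, Bub1 -0.10 to 0.44, Bub1b -0.24 to 0.31, Cdc20 -0.027 to 0.46, Ube2c -0.26 to 0.28, Cenpa -0.079 to 0.26, Cenpe -0.29 to 0.29, Birc5 -0.14 to 0.31, Kif20a -0.22 to 0.25, Kif23 -0.12 to 1.24, Tpx2 -0.41 to 0.063, Prc1 -0.41 to 0.054, Mki67 -0.31 to 0.21, Top2a -0.18 to 0.41, Rrm1 -0.020 to 0.13, Rrm2 -0.011 to 0.26, Mcm3 -0.088 to 0.077, Mcm6 -0.087 to 0.0084, Cdkn2b -0.28 to 0.13, Cdkn2d -0.060 to 0.036, Ccnd2 -0.013 to 0.75, Cdk4 -0.018 to 0.041 and Cdk6 -0.065 to 0.059.

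No paired analysis was possible because the replicate numbers follow the order of the libraries, so a shared number marks nothing shared that is stated. The replicate numbers restart within each treatment and run on from prefix 394 to prefix 400 in GA. Only the number after the title prefix restarts within each prefix, and its meaning is not stated either. Differences smaller than the intervals given were not detectable with 5 libraries a group, least of all for the mitosis genes, whose counts were low and whose libraries varied. For the count of genes whose groups do not overlap, DESeq2, limma-voom and the count filters were not run, since it uses no model.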
